A study of Mus musculus with 8 samples.

Results

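Tumor endothelial cells from B16-F10 melanomas were examined for 10 genes that mark sprouting vessels or encode the apelin and angiopoietin-TIE signaling systems. The genes are Apln, Aplnr, Angpt1, Angpt2, Tek, Tie1, Esm1, Cxcr4, Plvap and Insr. They were chosen by symbol, and all 10 are among the 20057 genes listed. Male C57BL/6 mice, 8 weeks old, had received 250000 B16-F10 melanoma cells under the skin, and every tumor was injected peritumorally with 30 µg of antibody on days 13 and 16. In 4 mice the antibody was agonistic CD40 mAb (FGK4.5), and in the other 4 it was isotype control (rat IgG2a, 2A3). Tumors were taken 1 day after the last injection according to the sample labels, and about 100000 live CD45- CD31+ cells per tumor were sorted for RNA-sequencing. Each library comes from 1 mouse and is called by its mouse, 5N, 6L, 6R and 10N with agonistic CD40 mAb and 5L, 7N, 8N and 9L with isotype control. All mice carried the same transplanted line and none was untreated, so the comparison is between antibodies only.

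Angiogenic sprouts are led by tip cells, which respond to VEGF and lay down the path that the following stalk cells take. Tip cells are known for apelin, a secreted peptide that acts on the G protein-coupled receptor APLNR, and for ESM1, also called endocan, a secreted proteoglycan. Angiopoietins are ligands of the receptor tyrosine kinase TEK, also called TIE2. ANGPT1, made mainly by mural and other stromal cells, activates TEK and steadies the vessel wall, while ANGPT2 is released by activated endothelium and can block or weakly activate the same receptor. TIE1 is a related receptor that pairs with TEK.

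For none of the 10 genes was a difference between agonistic CD40 mAb and isotype control larger than the spread between libraries. Values are normalized reads, that is gene reads divided by a size factor per library. Fold changes were fitted with limma to log2(value + 1) for 12969 genes, those with more than 10 normalized reads in the mean of either group. A gene was called when its group means differed by 1.5-fold or more and its unadjusted p was 0.05 or less. All 10 genes were above the limit, and 0 were called higher and 0 lower. Of all tested genes 1.28% were called higher and 0.239% lower. With shares this small, here and below, 0 of 10 does not set the members apart from other genes. Unadjusted limma p-values were above 0.05 for all members, where 2.01% of all genes reached it, and each member had an adjusted p of 0.9997 over all genes tested (0.0154% of all genes, 2 in number, were under 0.05, against 63 higher and 1 lower by DESeq2). With edgeR or DESeq2 on recovered reads, 0 members passed the same call rule. The 2 groups overlapped for every member, where 1.57% of tested genes had groups that did not overlap. Log2 fold changes of the members ran from -0.11 to 0.20, with a median of 0.04, beside a median of 0.00 over all genes tested. The median size of the change regardless of sign was 0.11 for the members and 0.10 for all genes tested. By the same call rule the libraries did separate in genes of the IFNγ response. Earlier results of these data were known when they were listed, so calls among these reference genes were not an independent test. All 7 of these were called higher, among them Irf1 with 1034 ± 232 against 520.5 ± 178 normalized reads (SD, n = 4 each) and Cxcl9 with 3277 ± 1377 against 799.7 ± 556 (SD, n = 4 each). Of these genes only Tap1 had groups that overlapped. By adjusted p the reference genes did not pass either, with limma values from 0.359 (Gbp2 and Cxcl10) to 0.9997 (Cxcl9). Library 5L was the lowest for these genes, and without it the change of Cxcl9 on the log2 scale was 1.58 in place of 2.58 and the median over the 7 was 1.07 in place of 1.38, with all 7 still called.

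**Figure D1:**
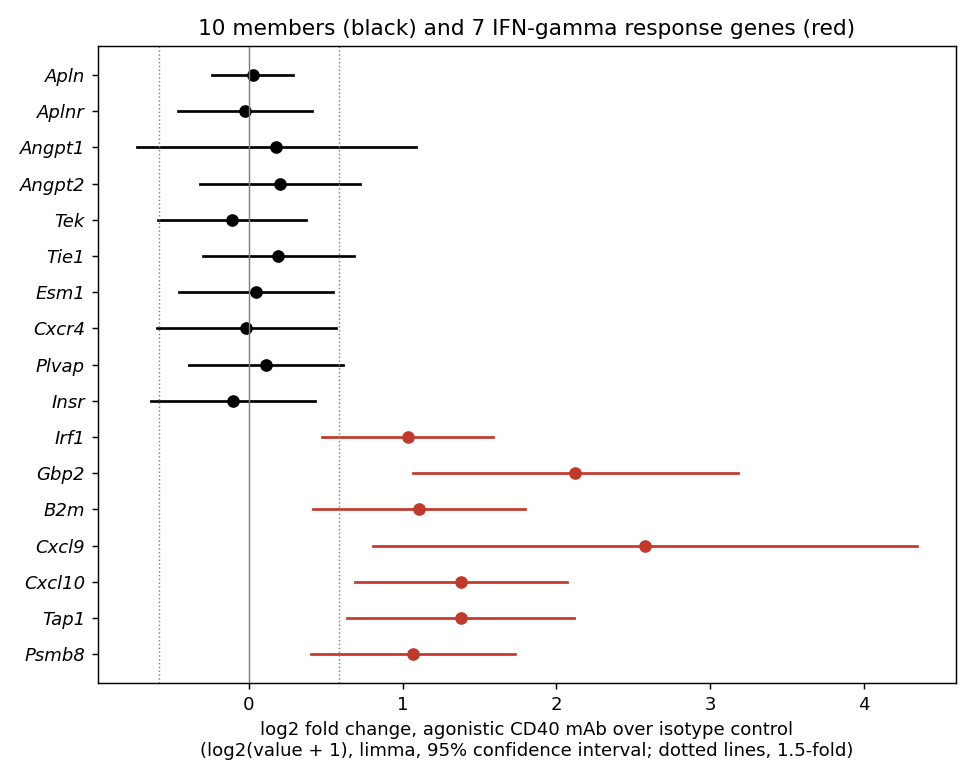
Log2 fold change of agonistic CD40 mAb over isotype control from limma on log2(value + 1), with 95% confidence intervals, for the 10 members in black and 7 IFNγ response genes in red. Dotted lines mark a 1.5-fold change; every black interval spans 0 and every red interval lies above 0.

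The width of the intervals sets what these data can show. The 95% confidence interval of the log2 fold change from limma stayed within 1.5-fold in both directions for 3 members (Apln, Aplnr and Esm1) and within 2-fold for 9. Angpt1 was the exception, with an interval from -0.73 to 1.09. For the other 9 members a 2-fold change lay outside the interval, and for 6 of them a 1.5-fold change in at least 1 direction lay inside it. In bulk RNA of sorted cells, fewer cells of a type and less RNA per cell cannot be told apart.

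Recovered reads on genes ranged from 2971689 to 64938728 per library, and isotype control held the 3 shallowest, 5L, 7N and 8N. One read counted for 0.118 normalized reads at the greatest depth and for 2.44 at the smallest. Members rested on at least 273 reads in every library, except Angpt1, which had between 9 and 604. The sort was checked against markers. Endothelial markers such as Cdh5, at 11917 ± 1478 normalized reads after agonistic CD40 mAb against 11125 ± 1821 after isotype control (SD, n = 4 each), were all detected, but so were markers of other cells. The summed 10 fibroblast markers took between 1.31% and 3.39% of all normalized reads, against 0.569% to 0.930% for 14 endothelial markers, 0.573% to 1.62% for 9 melanoma markers and 0.194% to 0.545% for 12 mural markers. The 18 leukocyte markers took between 0.00287% and 0.00749%. Library 5L stood at the low end of the endothelial sum (44308) and at the high end of the melanoma sum (117671, the other libraries 46535 to 73743). Values without 5L are given beside Angpt1, Angpt2, Esm1 and Cxcr4.

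**Figure D2:**
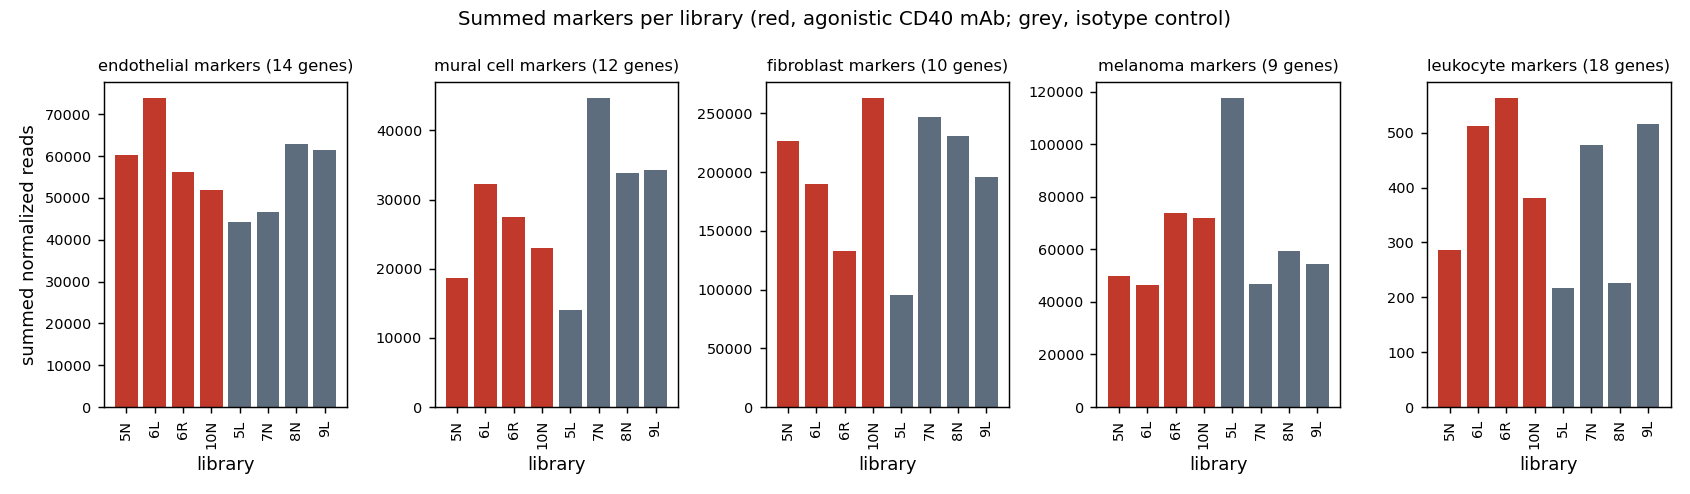
Bars give the summed normalized reads of the marker lists of 5 cell types in each of the 8 libraries, red for agonistic CD40 mAb and grey for isotype control. Library 5L has the lowest endothelial, mural and fibroblast sums and the highest melanoma sum, and the leukocyte sum stays at or under 564 in all libraries.

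Promoter sequence was available in RefSeq (GRCm38.p6, equal in coordinates to mm10) for 5 members, Apln, Cxcr4, Esm1, Tek and Tie1. The 250 bases before the start site are shown for 3 of them, a ligand, a secreted tip-cell marker and a receptor, so that the promoters of genes with no called change can be read beside the IFNγ response of the same libraries. They are written 5′ to 3′ on the strand of the gene, with each GGAA core of ETS factors, also where it reads TTCC, in capitals; ETS factors are general regulators of endothelial genes. The windows are chrX:48034854-48035103 (minus strand), chr13:113209409-113209658 (plus strand) and chr4:94739039-94739288 (plus strand).
Apln: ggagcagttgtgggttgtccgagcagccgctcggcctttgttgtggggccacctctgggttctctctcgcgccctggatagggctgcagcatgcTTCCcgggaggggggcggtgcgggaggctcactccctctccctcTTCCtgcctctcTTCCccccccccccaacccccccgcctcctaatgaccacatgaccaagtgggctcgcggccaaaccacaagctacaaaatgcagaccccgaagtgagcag
Esm1: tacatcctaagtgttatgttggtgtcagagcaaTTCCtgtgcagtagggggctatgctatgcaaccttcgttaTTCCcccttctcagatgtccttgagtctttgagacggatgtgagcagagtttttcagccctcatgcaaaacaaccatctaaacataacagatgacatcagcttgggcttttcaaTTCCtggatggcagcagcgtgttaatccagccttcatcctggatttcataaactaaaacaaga
Tek: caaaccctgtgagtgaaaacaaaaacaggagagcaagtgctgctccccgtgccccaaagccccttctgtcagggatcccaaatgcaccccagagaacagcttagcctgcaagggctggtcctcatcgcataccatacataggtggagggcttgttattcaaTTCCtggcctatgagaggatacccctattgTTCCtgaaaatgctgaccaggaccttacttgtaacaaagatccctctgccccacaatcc
GGAA was found 3 times for Apln, 3 times for Esm1 and 2 times for Tek, while 93.4% of 27025 promoter windows of this length held it at least once and 54.8% at least 3 times. Tie1 held 7 matches, and 3.77% of windows had at least 7. The letters TTCNNNGAA of the gamma-activated site (GAS), an IFNγ response element, were in 0 of the 5 members' windows, in 2 of the 7 IFNγ reference genes with a promoter (Irf1 and Psmb8), and in 7.18% of all windows. A match or its absence describes the letters in this window only. ACGTG, the core of hypoxia response elements, was in none of the 5 windows and in 16.6% of all.

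Apelin, the ligand, was the steadiest of the members. Apln had 5434, 5106, 5506 and 5806 normalized reads in 5N, 6L, 6R and 10N and 4949, 4960, 6209 and 5440 in 5L, 7N, 8N and 9L. The lowest and the highest of the 8 values both came from isotype control, and the highest was 1.25 times the lowest. On the log2 scale the difference was 0.02 (standard error 0.12, 95% interval -0.24 to 0.29; exact permutation test of the group means, two-sided, p = 0.8). The within-group SD of Apln on the log2 scale was 0.12, and 6.86% of tested genes had a smaller one. The gene lies at chrX:48025146-48034853 (minus strand) (GENCODE M21, mm10).

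Aplnr, its receptor, fell into a higher and a lower pair in both groups. The gene is a single exon at chr2:85136225-85139923 (plus strand). It had 4510 and 4393 normalized reads in 5N and 6L but 3088 and 2852 in 6R and 10N, and with isotype control 3189 and 2995 in 5L and 7N but 4564 and 4293 in 8N and 9L. These pairs gave nearly equal group means, 3711 ± 862 and 3760 ± 783 (SD, n = 4 each). The log2 fold change was -0.03 (standard error 0.20, 95% interval -0.46 to 0.41; exact permutation test, p = 0.8). Within a library Apln was between 1.16 times (6L) and 2.04 times (10N) Aplnr, a ratio in which the library scaling cancels. Its log2 difference between groups was 0.05, with SDs of 0.40 and 0.18 (exact permutation test, p = 0.857). It was 1 of 5 such ratios computed, and each had an adjusted p of 1.0 over the 5.

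Of the other genes listed for the apelin pathway, Apela, a second ligand of APLNR, had 2 reads over the 8 libraries, too few for a difference to be seen. The other 13 of the 14 genes were tested, 0 were called in either direction, and their median log2 fold change was 0.16, with 0.047 without 6L, 0.050 without 5L and 0.053 without 9L. Klf4 and Arrb1 had the lowest p, with log2 fold changes of 0.39 and 0.23 (limma unadjusted p = 0.0741 and 0.153). Klf4 is a transcription factor of quiescent endothelium and Arrb1 a β-arrestin that binds activated receptors. Gnai2, an inhibitory G protein subunit, and Hif1a, the oxygen-regulated transcription factor, had the largest means there, with log2 fold changes of -0.02 and -0.00.

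The angiopoietin ligands differed from each other far more than either did between treatments. Angpt2 lies at chr8:18690263-18741562 (minus strand) and Angpt1 at chr15:42424723-42676977 (minus strand). Angpt2 had 4682, 5064, 6247 and 5576 normalized reads in 5N, 6L, 6R and 10N and 2691, 5855, 5976 and 4992 in 5L, 7N, 8N and 9L. Only 5L fell clearly below the rest, and the other 7 values lay between 4682 and 6247. Group means were 5392 ± 677 and 4878 ± 1523 (SD, n = 4 each), and the log2 fold change was 0.20 (standard error 0.24, 95% interval -0.32 to 0.72; exact permutation test, p = 0.686). Without 5L it was -0.06.

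Angpt1 had 71.1, 63.4, 60.8 and 62.1 normalized reads in 5N, 6L, 6R and 10N, and 22.0, 119, 64.0 and 60.5 in 5L, 7N, 8N and 9L. The 4 agonistic CD40 mAb libraries thus lay close together, while 5L and 7N stood below and above all others. The value of 5L rests on 9 reads (exact Poisson 95% interval 10.1 to 41.8) and that of 7N on 50 reads (88.3 to 157), intervals that cover counting error only and do not meet. The coefficient of variation was 7.22% for agonistic CD40 mAb libraries against 60.1% for isotype control. Group means were nearly equal, 64.4 ± 4.65 and 66.3 ± 39.9 (SD, n = 4 each). The log2 fold change of Angpt1, fitted to mean log2 values, was 0.18 and so opposite in sign to the difference of these means (standard error 0.41; exact permutation test, p = 0.857), and it was -0.26 without 5L and 0.53 without 7N. The same 2 libraries were the ends of the mural sum, 14057 in 5L and 44727 in 7N, with the other libraries between 18724 and 34333. All 12 mural markers were detected and 0 were called, with 11 log2 fold changes below 0 and a median of -0.19 (-0.47 without 5L and -0.030 without 5N). Rgs5, Kcnj8 and Acta2, which mark pericytes and smooth muscle and were named by p or mean, had log2 fold changes of -0.31, -0.32 and -0.30. Of these named genes, Rgs5 (-0.64) and Acta2 (-0.75) were called lower without 5L. The part of mural cells in the Angpt1 values was not tested. Exons of Angpt1 also overlap those of Gm17473 on the opposite strand over 737 bases, and Gm17473 is not listed separately.

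Per library, Angpt2 was between 49.2 times (7N) and 122 times (5L) Angpt1 in normalized reads. Per kilobase of merged exons the ratio averaged 117 (geometric mean over 8 libraries), and its log2 value differed by 0.02 between groups, with SDs of 0.27 and 0.55 (exact permutation test, p = 1.0). Angpt4, the remaining angiopoietin, was low, 10.9 ± 6.56 and 5.49 ± 2.97 (SD, n = 4 each), with a log2 fold change of 0.79 (standard error 0.59).

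Tek, the angiopoietin receptor, had 1158, 1209, 707 and 624 normalized reads in 5N, 6L, 6R and 10N and 797, 942, 1011 and 1109 in 5L, 7N, 8N and 9L. Both the lowest and the highest values were from agonistic CD40 mAb, so the isotype control range lay inside the other. Group means were 924 ± 302 and 965 ± 132 (SD, n = 4 each), and the log2 fold change was -0.11 (standard error 0.22, 95% interval -0.59 to 0.37; exact permutation test, p = 0.857). Without 10N it was 0.057, and without 6L it was -0.26. Tie1, the partner receptor, had 3158, 5391, 3028 and 3692 normalized reads in the same order with agonistic CD40 mAb and 3157, 2272, 4093 and 3808 with isotype control. Library 6L was the highest and 7N the lowest. The log2 fold change was 0.19 (standard error 0.22, 95% interval -0.30 to 0.68; exact permutation test, p = 0.571), and it was 0.013 without 6L and 0.019 without 7N. Tie1 was between 2.41 times (7N) and 5.92 times (10N) Tek, and the log2 value of this ratio differed by 0.30 between groups, with SDs of 0.46 and 0.35 (exact permutation test, p = 0.314). Tek and Tie1 lie on chromosome 4 of mm10, from 94739289 to 94874976 on the plus strand and from 118471191 to 118490061 on the minus strand.

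Among 19 other genes listed for angiopoietin-TIE signaling, 17 were tested and 0 were called, with a median log2 fold change of 0.02. Dok2 and Grb7, adaptors that bind TEK, had 45 and 24 reads over all libraries and were below the limit. Grb14, another such adaptor, had a log2 fold change of 0.49 (limma unadjusted p = 0.335), and this p and that of Angpt4 (0.206) were the lowest of the list. The genes with the largest means, the integrin chain Itgb1 and the junction cadherin Cdh5, had log2 fold changes of -0.09 and 0.11.

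Esm1, at chr13:113209659-113218098 (plus strand), had 5051, 5290, 6232 and 4659 normalized reads in 5N, 6L, 6R and 10N and 3055, 5962, 6802 and 5517 in 5L, 7N, 8N and 9L. As for Angpt2, 5L was below all others, and the other isotype control libraries lay within or above the range of agonistic CD40 mAb. Group means of Esm1 were 5308 ± 669 and 5334 ± 1610 (SD, n = 4 each), with a log2 fold change of 0.05, also opposite in sign to the difference of the means (standard error 0.23; exact permutation test, p = 1.0). Without 5L it was -0.20 (limma unadjusted p = 0.161).

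Cxcr4, the receptor of the chemokine CXCL12, lies at chr1:128588199-128592293 (minus strand). It had 853, 1619, 1181 and 996 normalized reads in 5N, 6L, 6R and 10N and 667, 1423, 1466 and 1226 in 5L, 7N, 8N and 9L. Library 5L was the lowest and 6L the highest, and the ranges overlapped over most of their span. The log2 fold change was -0.02 (standard error 0.26, 95% interval -0.60 to 0.56; exact permutation test, p = 0.886). Without 5L it was -0.28 (limma unadjusted p = 0.172), and without 5N it was 0.12. Leukocytes also carry Cxcr4, and their part in its level was not tested. The 18 leukocyte markers together summed to between 285 and 564 normalized reads with agonistic CD40 mAb and between 217 and 517 with isotype control. Ptprc, which encodes CD45, was at most 21.1. Of the T-cell genes, Cd3e and Cd3g were at most 1.16, Cd4 at most 3.03 and Cd8a at most 4.81. Cd8a rested on 14 reads over all libraries, none of them with isotype control. Of these markers 8 were tested and 0 were called; Itgam and Lyz2, both myeloid genes and those with the lowest p, had log2 fold changes of 1.15 and 0.79, and Cd68, a macrophage gene, of -0.08. Itgam was called higher without 7N or 9L, and Lyz2 without 5N, 7N or 9L. Without 5L, Itgam fell to 0.77 and Lyz2 to 0.49.

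Cxcl12 itself was 3953 ± 979 and 2804 ± 394 normalized reads (SD, n = 4 each), at a log2 fold change of 0.48 (standard error 0.18, limma unadjusted p = 0.0209). Its ratio of 1.41 was under the 1.5 needed for a call, which it passed only without 6L (1.51). The log2 fold change fell to 0.32 without 5N (limma unadjusted p = 0.0589) and to 0.37 without 5L. Of 6 genes listed for the CXCR4 axis, Cxcl12 alone reached an unadjusted limma p of 0.05 with all libraries, and 0 were called. Dpp4, a peptidase that cleaves CXCL12, had a log2 fold change of -0.40 (limma unadjusted p = 0.396), from -0.74 without 5N to -0.082 without 7N. The list had a median log2 fold change of 0.04, and Gnai2 had one of its largest means.

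Plvap, which builds the diaphragms of endothelial fenestrae and caveolae, lies at chr8:71497765-71511752 (minus strand). It had 4190, 8890, 5716 and 7296 normalized reads in 5N, 6L, 6R and 10N and 5325, 4637, 6878 and 6716 in 5L, 7N, 8N and 9L. Agonistic CD40 mAb held both the lowest and the highest library. The log2 fold change was 0.11 (standard error 0.23, 95% interval -0.39 to 0.61; exact permutation test, p = 0.629), and it was -0.06 without 6L. All 9 other genes listed for caveolae and fenestrae were tested and 0 were called, with a median of 0.11 that became -0.03 without 5L. Ehd4, a membrane-shaping ATPase, and Cavin2 (listed under its older symbol Sdpr), a caveolar coat protein, had the lowest p and log2 fold changes of 0.26 and 0.27. Ehd4 ran from 0.13 without 7N to 0.33 without 9L, and Cavin2 from 0.13 without 6L to 0.46 without 10N. Cav1, the main caveolar protein, and Nrp1, a VEGF co-receptor, had the largest means, with 0.10 and 0.13.

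Insr, the insulin receptor, lies at chr8:3122061-3279617 (minus strand). It had 1973, 2775, 1658 and 1420 normalized reads in 5N, 6L, 6R and 10N and 1508, 3071, 1934 and 1903 in 5L, 7N, 8N and 9L. One library per group, 6L and 7N, was far above the rest, and the other 6 lay between 1420 and 1973. Its log2 fold change was -0.10 (standard error 0.24, 95% interval -0.63 to 0.43; exact permutation test, p = 0.657), and it was -0.28 without 6L and 0.098 without 7N. Of 13 genes listed for insulin and IGF signaling, 12 were tested and 0 were called, with a median log2 fold change of 0.02. Igfbp5 and Igf1 had the lowest p and log2 fold changes of 0.33 and 0.45, which were 0.021 without 6L for Igfbp5 and -0.067 without 5L for Igf1. Igfbp3 and Igfbp7, secreted binding proteins with the largest means, had 0.05 and 0.00.

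**Figure D3:**
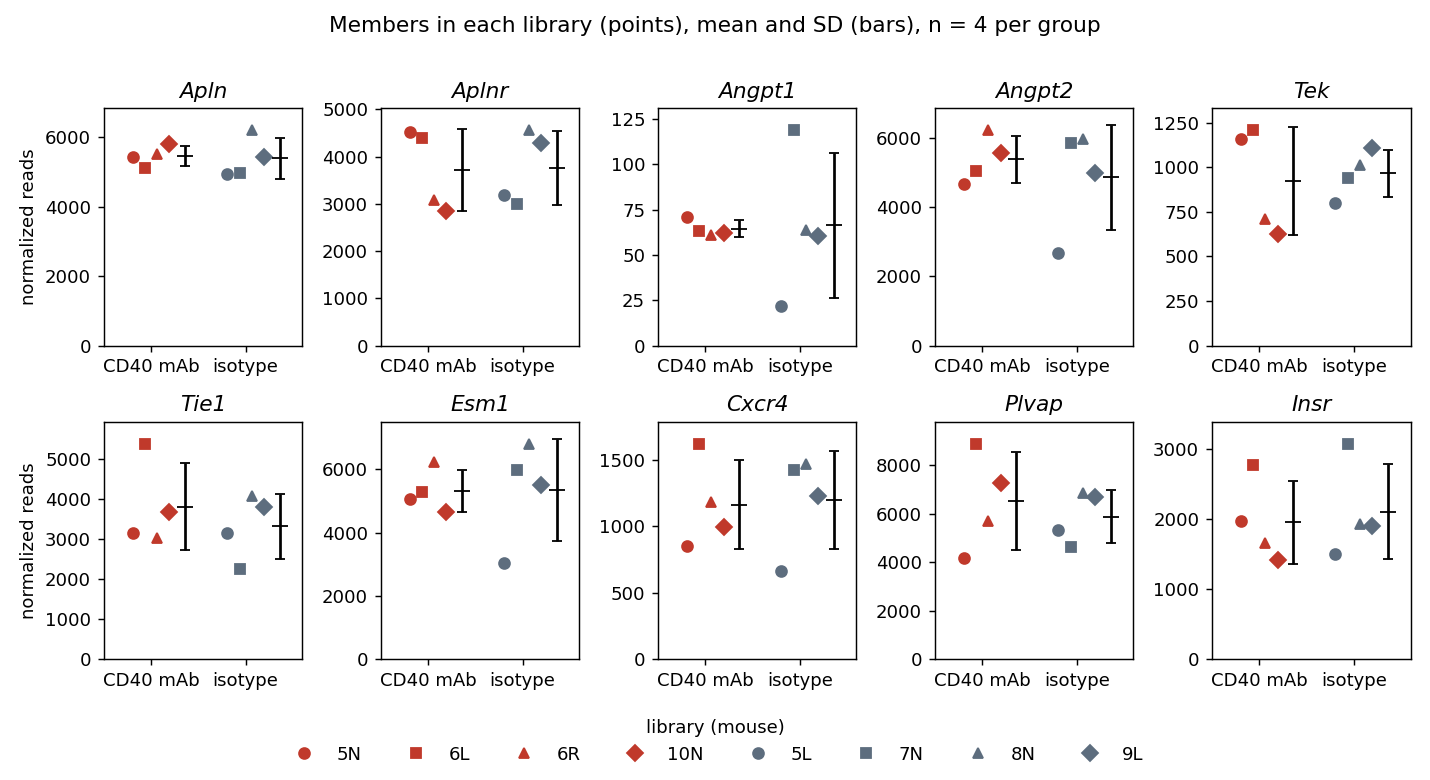
Normalized reads of the 10 members in each library, red for agonistic CD40 mAb and grey for isotype control, with the mean and SD of each group (n = 4) as bars; all axes start at 0. The groups overlap in every panel, and isotype control library 5L is the lowest point for Apln, Esm1, Angpt1, Angpt2 and Cxcr4.

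A further 23 genes known from tip cells were listed beside the members. All were tested, 0 were called, and the median of their log2 fold changes was 0.11 (-0.01 once 5L was left out). Rgcc, a cell cycle regulator, and Pdgfb, the growth factor by which tip cells recruit pericytes, had the lowest p. The group means of Rgcc were 498 ± 148 and 355 ± 121 normalized reads (SD, n = 4 each). Its change of 0.52 on the log2 scale had a standard error of 0.28 (limma unadjusted p = 0.0924), and it was called higher only without 9L (ratio 1.62). Pdgfb, at 2370 ± 448 and 1989 ± 350 (SD, n = 4 each), had a value of 0.25 on that scale. Col4a1 and Col4a2, the basement membrane collagen chains with the largest means of this list, had -0.10 and 0.06.

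Levels were compared between members per kilobase of merged exons. Plvap came first with 3123 ± 776 normalized reads per kilobase (SD over 8 libraries), followed by Esm1 with 2537 ± 544 and Apln with 1723 ± 137. Angpt2 had 1392 ± 305, Aplnr 1010 ± 206, Tie1 727 ± 188 and Cxcr4 652 ± 180. Tek followed with 200 ± 46.0 and Insr with 148 ± 43.0, and Angpt1 was last with 12.6 ± 5.06. Neighboring genes in this order were not all separate: Plvap exceeded Esm1 in 5 of 8 libraries and Tie1 exceeded Cxcr4 in 6 of 8. Esm1 exceeded Apln, Apln exceeded Angpt2, Angpt2 exceeded Aplnr, and Tek exceeded Insr in 7 of 8 each. Aplnr exceeded Tie1, Cxcr4 exceeded Tek, and Insr exceeded Angpt1 in all 8. Merged exons count every annotated isoform, from 1808 bases for Cxcr4 to 13746 for Insr, and the lengths of the isoforms expressed here were not measured.

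**Figure D4:**
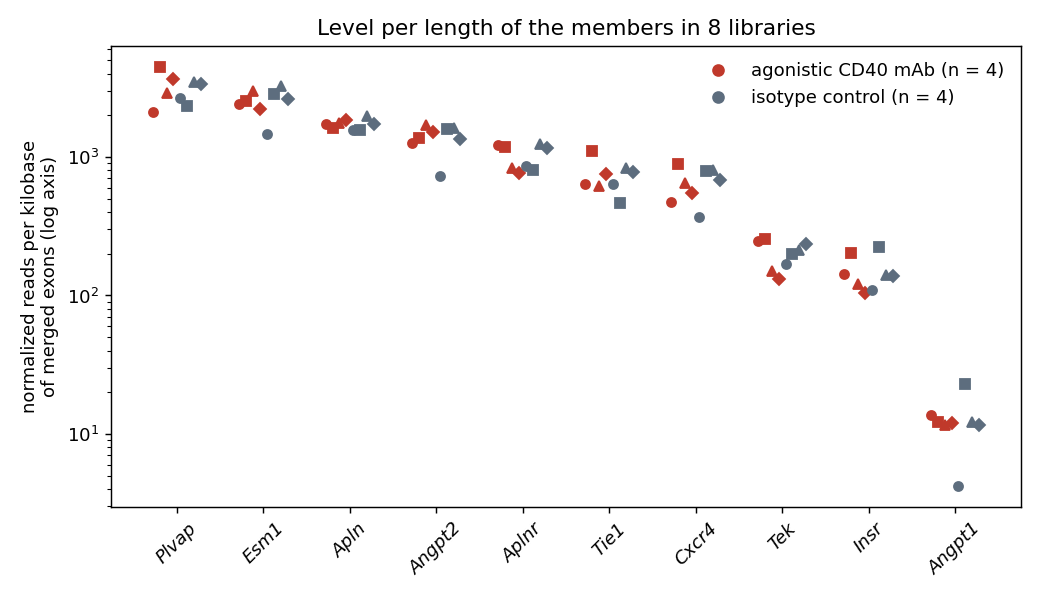
Normalized reads per kilobase of merged exons (log axis) for the 10 members, ordered by mean, with 1 point per library in red (agonistic CD40 mAb) and grey (isotype control). Red and grey points mix at every gene, and Angpt1 lies below Insr, its nearest neighbor, in all 8 libraries.

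Members were also compared with each other from tumor to tumor. Over the 45 pairs, relations were computed across the 8 libraries on log2(value + 1), with exact permutation of the pairings. An unadjusted p of at most 0.05 was reached by 5 pairs, and 0 passed after Benjamini-Hochberg adjustment over the 45 (7 and 0 on values centered on the group mean). Tie1 and Plvap had a Pearson r of 0.857 (exact permutation p = 0.00637, adjusted p = 0.131) and a Spearman rho of 0.762 (exact permutation p = 0.0368, adjusted p = 0.414). Without 6L and 7N, farthest from the median of Tie1, r was 0.758. Aplnr and Tek had r = 0.865 (exact permutation p = 0.00875, adjusted p = 0.131) and rho = 0.762 (exact permutation p = 0.0368, adjusted p = 0.414), and r was 0.934 without 7N and 10N. Esm1 and Angpt2 had the largest r of these pairs, 0.927 (exact permutation p = 0.00774, adjusted p = 0.131), and rho = 0.810 (exact permutation p = 0.0218, adjusted p = 0.414). This r rested partly on 5L, without which it was 0.646, and without 5L and 8N it was 0.574. Cxcr4 and Esm1 had r = 0.818 (exact permutation p = 0.0118, adjusted p = 0.133) and rho = 0.667 (exact permutation p = 0.0831), and r was 0.567 without 5L and 0.478 without 5L and 8N. Cxcr4 and Angpt2 had r = 0.757 (exact permutation p = 0.0257, adjusted p = 0.231) and rho = 0.524 (exact permutation p = 0.197), and r was 0.357 without 5L. Without the 2 libraries farthest from the median of Angpt2, 6R and 5L, r was 0.479, and without the 2 farthest from that of Cxcr4 it was -0.161, so the relation rested on those libraries. No batch is given in the labels within which these relations could be recomputed.

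**Figure D5:**
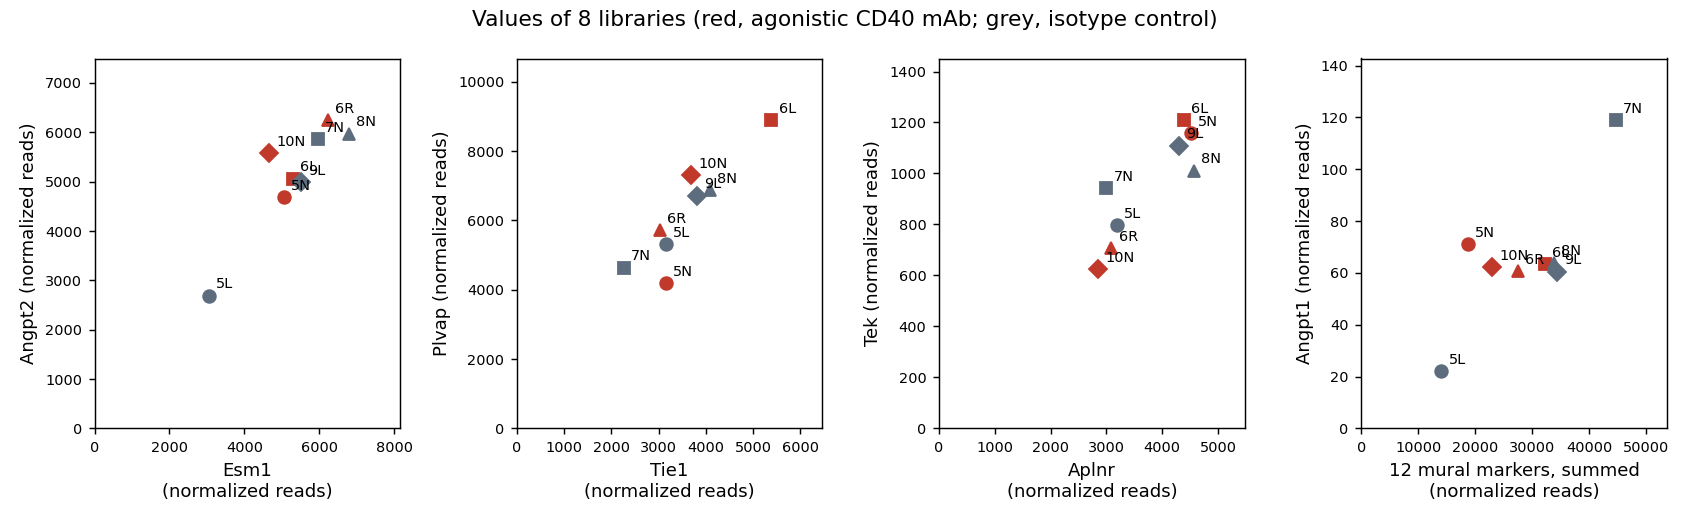
Each point is 1 library, red for agonistic CD40 mAb and grey for isotype control, with normalized reads on both axes: Esm1 and Angpt2, Tie1 and Plvap, Aplnr and Tek, and the 12 summed mural markers and Angpt1. Library 5L lies apart at the lower left of the first panel, and 5L and 7N are the ends of the last.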

How the data were processed

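RNA-sequencing of sorted tumor endothelial cells was analyzed in 8 libraries, 4 per antibody. According to the methods and the submitters' processing notes, the authors demultiplexed reads with CASAVA 1.8, aligned them to mm10 with TopHat2 (Bowtie2 2.2.1), assigned them to genes in Partek 6.6 and normalized gene counts with DESeq2. The values deposited by the authors are a signal, normalized reads per gene and library. They are whole multiples of 1 step per library for 99.9% of values (tolerance 0.1 read), so reads were recovered. The methods also state a correction for harvest day and a floor on low values. The file holds values of 0 and whole-read steps, so neither is visible in it, and the labels give no harvest day, which thus could not be fitted. The study's own test was a two-way ANOVA, described for datasets of endothelial cells and macrophages without naming its factors. Macrophage samples are not analysed here. The library kit does not mark strand, so reads from overlapping antisense genes cannot be told apart.

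Values were fitted as log2(value + 1) with limma 3.58.1 (R 4.3.3), using a variance trend and no term besides treatment, on genes with a larger group mean above 10. P-values were adjusted by the Benjamini-Hochberg method over all genes. For single genes and ratios, means were set against all 70 assignments of libraries to groups (exact permutation test, two-sided), which cannot give a p below 0.0286. Libraries are separate mice. The scripts were tested on simulated data.

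The members and gene lists were chosen with earlier results of these data known. Named beside the members are, in each list, called genes plus 2 of lowest p and 2 of largest mean. Symbols were matched to GENCODE M21 (19322 of 20057 genes), and 3 list genes were found under older symbols. Some items of the lists are not reported here. Alternatives were pseudocounts of 0.1 and 10, other limits and scalings, other limma settings, a linear model without moderation, edgeR 4.0.16 and DESeq2 1.42.0 on recovered reads, and leaving out each library. Scaling to the endothelial sum was chosen after seeing the data.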

Additional observations from a re-analysis of the deposited data

Results flagged for a closer look

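Within groups of 4, a library was marked where its gap to the nearest other exceeded the 95% critical share of the range of the group (Dixon). This held for 9 of 158 groups of values, and chance marks about 1 group in 20. None was a member or a ratio of members. Isotype control library 5L was the lowest of its group for B2m (3385 normalized reads) and Thy1 (1156) and the highest for the melanocyte genes Dct (28069) and Tyrp1 (35919). Isotype control library 8N was the highest for Cxcl10 (319.9). Agonistic CD40 mAb library 10N was the highest for the red blood cell sum (1267), Hba-a1 (477) and Hba-a2 (413), and 6L for the platelet and megakaryocyte sum (3713).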

How the results depend on the processing

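No member was called higher or lower under any of the alternatives, all leave-one-out fits included. The lowest unadjusted limma p of any member was that of Aplnr with library quality weights, 0.0552, at a log2 fold change of -0.33. The sign of several members, none of them called, changed. With quality weights Apln was -0.091, Esm1 -0.19, Tie1 -0.082 and Plvap -0.047. With values scaled to the endothelial markers, chosen after seeing the data, Apln was -0.15, Esm1 -0.13 and Plvap -0.064, while the median of all genes moved to -0.17. With edgeR Esm1 was -0.0022 and Angpt1 -0.021, and with DESeq2 Esm1 was -0.0041 and Angpt1 -0.026. The cause of these changes was not tested.

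Leaving out each library in turn gave log2 fold changes of -0.015 to 0.094 for Apln, -0.13 to 0.091 for Aplnr, -0.26 to 0.53 for Angpt1, -0.060 to 0.32 for Angpt2 and -0.26 to 0.057 for Tek. The ranges were 0.01 to 0.30 for Tie1, -0.20 to 0.18 for Esm1, -0.28 to 0.12 for Cxcr4, -0.056 to 0.31 for Plvap and -0.28 to 0.10 for Insr. Without 5L the median over the members was -0.15, and those of the angiopoietin-TIE, tip-cell, CXCR4, insulin and caveolae lists were -0.04, -0.01, -0.04, -0.14 and -0.03.

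Over all genes, 297 were called higher without a limit on low values. Against 31 called lower, the counts were 88 without that limit, 13 at a limit of 50, 63 with quantile normalization, 57 without a trend, 70 with quality weights, 47 with edgeR, 58 with DESeq2 and 60 after endothelial scaling. Leaving out libraries gave 124 to 234 higher and 27 to 123 lower, the highest count of lower genes being without 5L. At an adjusted p under 0.05, limma had 2 genes, quality weights 17, endothelial scaling 26 higher and 2 lower, the fit without 5L 19, edgeR 3 and DESeq2 63 higher and 1 lower. Among uncalled genes named from the lists, Cav1, Nrp1, Igf1, Igfbp3, Igfbp7, Col1a1, Col3a1, Dct, Mlana, Pdpn and Ppbp changed sign without 5L, and Cd68, Col4a2, Gnai2, Hif1a and Itgb1 without another library. No paired analysis was possible because the labels give mouse names and no replicate numbers. Mouse names 5N and 5L share the number 5 across groups, and 6L and 6R share the number 6 within agonistic CD40 mAb. The labels do not say what these numbers mean. With 9 to 50 Angpt1 reads in the 3 shallowest libraries, depth limits that gene most.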

Other observations

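Other vessel-associated cells were measured in the same libraries. All 6 lymphatic endothelial markers were tested, and their log2 fold changes were above 0, with a median of 0.87 (0.46 without 5L), but 0 were called. Reln, Mmrn1 and Lyve1 had log2 fold changes of 0.92, 0.88 and 0.94 and were called higher only without 8N, and Pdpn, also present on fibroblasts, had 0.09. The 5 tested of 6 red blood cell genes, Hba-a1, Hba-a2, Hbb-bs, Hbb-bt and Alas2, were all called lower with agonistic CD40 mAb, with a median log2 fold change of -2.41 (-1.78 without 7N and -2.94 without 8N) and the largest change in Hbb-bs (-2.77). Their groups overlapped, as 10N reached 1267 normalized reads in the sum of the list and 8N had 853.

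Among 14 endothelial markers 0 were called. All 14 had log2 fold changes above 0, with a median of 0.16 that was 0.036 without 5L, and Pecam1 and Mmrn2 had 0.24 and 0.31. Of 10 fibroblast markers 0 were called, with a median of 0.12 that was -0.26 without 5L. Col1a1 and Col3a1 had log2 fold changes of 0.11 and 0.17, Thy1 had -0.24, and Pdgfra had 0.51 and was called higher only without 7N. Without 5L, Col1a1 and Col3a1 had -0.14 each, Thy1 had -0.53 and Pdgfra had 0.10. Of 9 melanoma markers 0 were called, with a median of -0.069 that was 0.23 without 5L, and Tyrp1, Dct and Mlana had -0.29, -0.07 and -0.24. Of 8 platelet and megakaryocyte markers 7 were tested and 0 called, with a median of 0.52 that was -0.092 without 5L. Itgb3 and Gp1ba had 0.16 and 0.63. Ppbp had 0.47 on the log2 scale but group means of 202 and 206 normalized reads, and leaving out single libraries gave values from -0.39 to 1.00. The 8 tested leukocyte markers had a median of 0.060 that was -0.16 without 8N.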
